A study of Mus musculus with 10 samples.

Results

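The Sonic hedgehog genes described here are Shh, Ptch1, Gli1, Gli2, Gli3, Hhip, Boc, Gas1 and Cdon, 9 named members matched by symbol among the 47729 genes of the deposited count table. All 9 had enough counts to be tested, among 20562 genes that did. The study sequenced RNA of forelimb buds from mouse embryos at E11.5-E12, 5 knockout and 5 control libraries, to ask what loss of Cxxc1 changes in the developing limb. The 5 knockout embryos were labelled Prx1Cre with both Cxxc1 alleles floxed. Of the controls, replicate 1 carried Prx1Cre with 1 floxed and 1 wild-type allele, replicates 2 and 4 were CreWT with 1 floxed allele, replicate 3 was CreWT with both alleles floxed, and replicate 5 had both alleles floxed and a Cre status marked as uncertain. Every embryo of either group therefore carried at least 1 floxed allele. Knockouts 1 and 2 and controls 1 and 2 were litter mates from litter A, knockout 3 and control 3 came from litter B, knockout 4 and control 4 from C, and knockout 5 and control 5 from D. Embryos were staged at 49 to 51 somites in both groups. Prx1Cre is a transgenic recombinase driven by a Prrx1 limb enhancer and is active in limb mesenchyme, so ectoderm, blood, vessels and immigrant muscle precursors of the bud lie outside its main reach.

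Sonic hedgehog is a secreted signal made by mesenchyme at the posterior margin of the limb bud, where it patterns the digits and sustains outgrowth. It binds the receptor PTCH1, which otherwise holds SMO inactive at the primary cilium, and active SMO turns the GLI transcription factors from repressors into activators. Gli1, Ptch1 and Hhip are themselves transcribed in response to the signal, PTCH1 and HHIP then restrain it, and BOC, CDON and GAS1 are cell surface proteins that help cells receive it. In mouse embryos the 3 co-receptor genes are known to be transcribed less where hedgehog signalling is high.

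Promoters of members that rose and of Gli2, which fell, are shown because CXXC1 is known for binding CpG sites that lack methylation. The response genes among them, Ptch1 and Hhip, are also known GLI targets. RefSeq (GRCm38.p6) gave a window of 250 bases before and 50 after an annotated start for 6 of the 9 members, namely Ptch1, Hhip, Gli2, Gli3, Gas1 and Cdon. Ptch1 and Hhip, both higher in the knockout, and Gli2, which was lower, are printed from 5′ to 3′ on the strand of the gene, with every CpG in capitals.
Ptch1, chr13:63565686-63565985, minus strand: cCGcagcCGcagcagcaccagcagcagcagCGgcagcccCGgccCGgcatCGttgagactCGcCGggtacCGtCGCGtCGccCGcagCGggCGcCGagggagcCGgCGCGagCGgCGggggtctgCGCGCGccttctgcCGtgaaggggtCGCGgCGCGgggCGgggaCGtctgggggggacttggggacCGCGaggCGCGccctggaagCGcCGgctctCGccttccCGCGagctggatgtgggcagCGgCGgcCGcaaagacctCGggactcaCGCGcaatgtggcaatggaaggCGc
Hhip, chr8:80057959-80058258, minus strand: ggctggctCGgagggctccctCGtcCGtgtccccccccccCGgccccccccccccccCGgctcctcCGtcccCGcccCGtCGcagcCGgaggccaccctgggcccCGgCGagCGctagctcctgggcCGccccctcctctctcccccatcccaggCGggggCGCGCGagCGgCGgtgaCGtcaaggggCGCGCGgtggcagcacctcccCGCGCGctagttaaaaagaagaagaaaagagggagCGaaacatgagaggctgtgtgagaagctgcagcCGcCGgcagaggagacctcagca
Gli2, chr1:119053570-119053869, minus strand: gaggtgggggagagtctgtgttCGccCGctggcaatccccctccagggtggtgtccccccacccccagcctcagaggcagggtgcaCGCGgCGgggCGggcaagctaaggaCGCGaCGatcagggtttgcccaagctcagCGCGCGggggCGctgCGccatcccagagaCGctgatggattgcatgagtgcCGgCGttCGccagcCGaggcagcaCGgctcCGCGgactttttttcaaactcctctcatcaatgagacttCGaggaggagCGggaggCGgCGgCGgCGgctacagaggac
The Ptch1 window held 47 CpGs, the Hhip window 30 and the Gli2 window 28, where the median of all 32851 promoter windows was 7. Fewer CpGs were counted in 98.6% of windows than in that of Ptch1, in 88.3% than in that of Hhip and in 85.8% than in that of Gli2. Gli3 had 39 CpGs and Gas1 17, while Cdon had 3, fewer than most windows. The Ptch1 start used by RefSeq lies 7863 bases inside the GENCODE gene and that of Cdon 30948 bases inside, so these windows cover 1 of several starts. The GLI motif GACCACCCA, searched on both strands, was in 0 of the 6 windows exactly and in 0 with 1 mismatch allowed. Of all windows, 0.25% held it exactly and 6.7% with 1 mismatch. CpG-rich windows were thus present among members that rose and members that fell. No binding or methylation was measured at these sites, and a window without the motif says nothing of GLI binding elsewhere.

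The libraries held 33274855 to 49881126 estimated counts each. Levels are CPM, the count scaled to the library total after TMM, a factor that evens out composition, and a count of 0 would allow at most 0.0573 to 0.0905 CPM depending on the library. Cxxc1, the targeted gene, was at 75.05, 75.8, 76.2, 75.8 and 73.1 CPM in knockouts 1 to 5, against 91.4, 95.4, 105.8, 101.6 and 89.5 CPM in controls 1 to 5. Every knockout lay below every control, with a log2 fold change of -0.36 (SE 0.05, edgeR, Benjamini-Hochberg adjusted p = 0.000144). Reads from any part of the gene enter this count, so it does not show the deleted part alone. The forelimb mesenchyme markers Prrx1 and Tbx5 were present at 297.1 ± 15.9 and 88.1 ± 9.95 CPM in knockouts and 578.1 ± 25.6 and 187.6 ± 20.7 CPM in controls (SD, n = 5 each). The hindlimb markers were low, with Tbx4 at 11.9 ± 1.97 CPM in knockouts and 11.4 ± 1.04 CPM in controls and Pitx1 at 0.972 ± 0.401 CPM in knockouts and 1.25 ± 0.427 CPM in controls (SD, n = 5 each).

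Markers of several other cell types differed between the groups. A marker is counted here as higher or lower at a Benjamini-Hochberg adjusted p below 0.05 in edgeR. By that measure 18.1% of all genes tested were higher and 17.1% lower. Markers of macrophages were higher in 9 of 9 genes, with a summed level of 198 to 237 CPM in knockouts and 53.7 to 67.1 CPM in controls. Markers of ectoderm and apical ridge were higher in 8 of 12 genes (606 to 723 CPM summed in knockouts and 339 to 550.2 in controls), and of muscle precursors in 5 of 7 (111 to 204 CPM in knockouts and 96.2 to 121 in controls). Red cell markers were higher in 5 of 6 genes (1764 to 3685 CPM in knockouts and 1587 to 1804 in controls), and endothelial markers in 5 of 7, with 1 lower (285 to 325 CPM in knockouts and 244 to 283 in controls). Markers of cartilage were lower in 6 of 7 genes (194 to 248 CPM in knockouts and 615 to 1048 in controls), and those of forelimb mesenchyme in 5 of 9 (1120 to 1273 CPM in knockouts and 1981 to 2152 in controls). Schwann precursor markers had 1 of 5 lower (48.6 to 54.8 CPM in knockouts and 48.7 to 56.5 in controls). None of these markers was at 0 in all libraries. Their part in the changes of the hedgehog genes was not tested.

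The hedgehog genes did not share a direction. The ligand gene Shh and the 3 response genes Gli1, Ptch1 and Hhip were higher in the knockout, while the co-receptor genes Boc and Cdon and the GLI genes Gli2 and Gli3 were lower. Of the 9 members, 4 rose, 4 fell and 1, Gas1, did not pass, where passing means a Benjamini-Hochberg adjusted p below 0.05 in edgeR's quasi-likelihood test, adjusted over all genes tested. That test called 35.2% of all genes tested, 18.1% higher and 17.1% lower. In 6 members the CPM of the groups did not overlap, as was the case for 25.3% of all genes. The median log2 fold change of the members was -0.18 and that of all genes tested -0.00087. In whole buds, fewer cells that express a gene and less RNA per cell cannot be told apart.

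**Figure D1:**
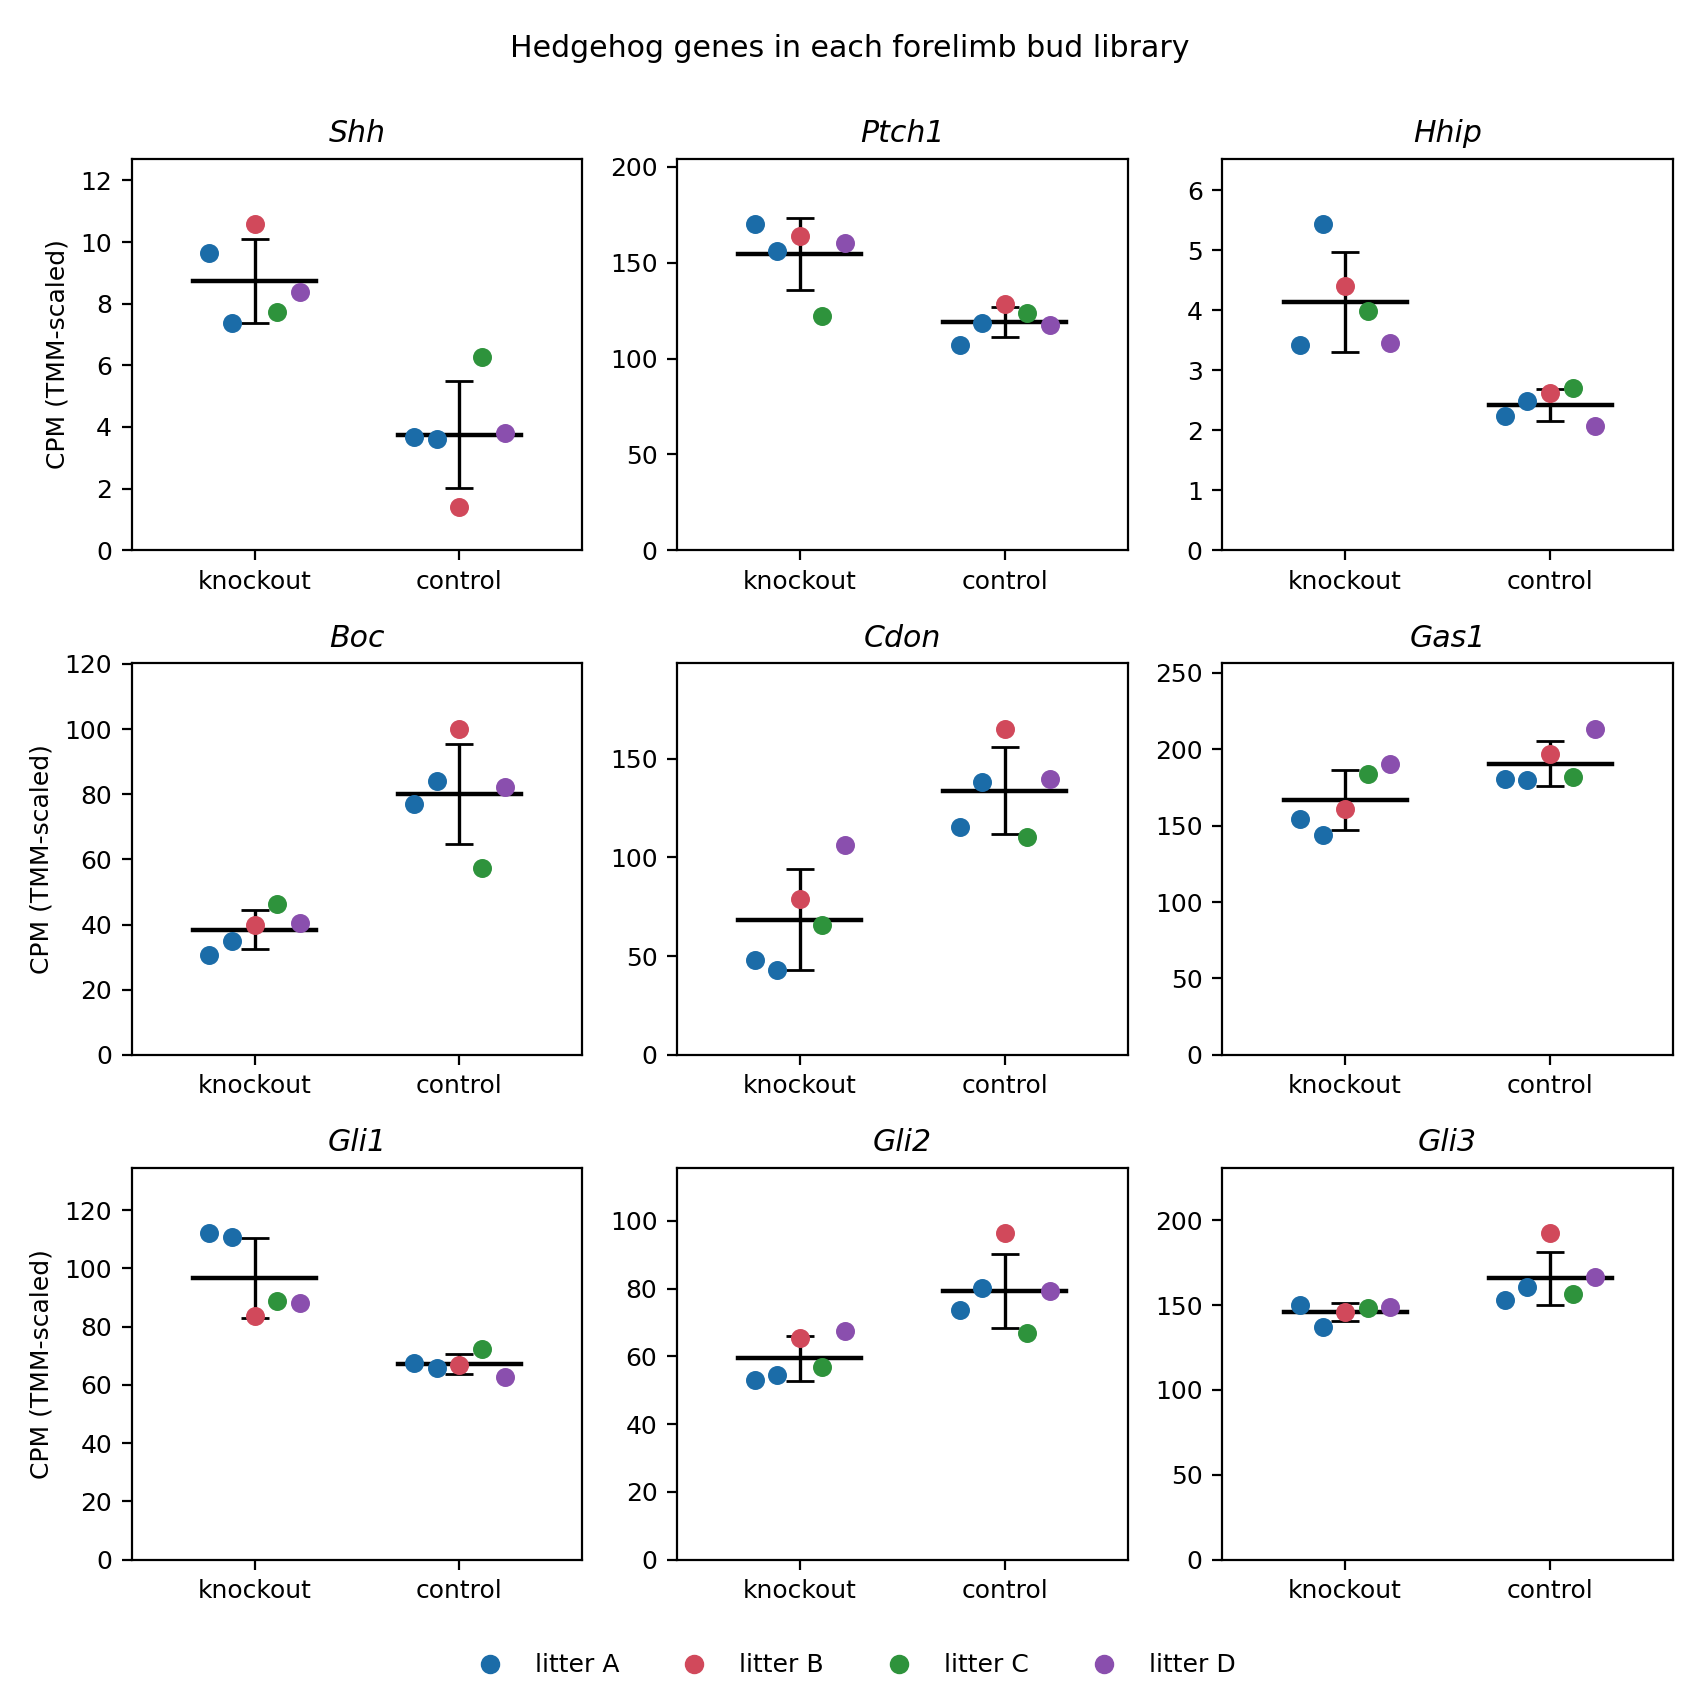
CPM of the 9 hedgehog genes in each library, with knockout left of control in every panel, points coloured by litter, and the mean and SD of 5 libraries as a line and bars. For Shh, Hhip and Gli1 every knockout point lies above every control point, for Boc, Cdon and Gli3 every knockout point lies below, and the groups overlap for Ptch1, Gas1 and Gli2.

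Shh, the ligand (ENSMUSG00000002633, chromosome 5, 28456815 to 28467256, minus strand, GRCm38), was higher in the knockout with the largest log2 difference of the members. It was at 9.65, 7.37, 10.6, 7.71 and 8.38 CPM in knockouts 1 to 5, against 3.68, 3.62, 1.39, 6.28 and 3.80 CPM in controls 1 to 5. The knockouts lay close together, while the controls spread from the low value of control 3 to the high value of control 4, and the groups did not overlap. The fold was 2.32 (95% interval 1.51 to 3.58), a log2 fold change of 1.22 (SE 0.29, edgeR, Benjamini-Hochberg adjusted p = 0.00564). Counts were 335 to 402 per knockout library and 68 to 301 per control library. The coefficient of variation was 15.5% among knockouts and 46.2% among controls. Without litter A, 3 against 3, the log2 fold change was 1.21 and the gene no longer passed (adjusted p = 0.092).

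Shh overlaps 2 genes of the opposite strand, whose reads cannot be told apart from its own unless counting used strand. The antisense gene 9530036O11Rik shares 15.7% of the Shh exon bases and was at 0.772 ± 0.517 CPM in knockouts and 0.531 ± 0.248 CPM in controls (SD, n = 5 each). The noncoding gene Gm26894 shares 12.7% and was at 0.491 ± 0.0836 CPM in knockouts and 0.112 ± 0.0758 CPM in controls (SD, n = 5 each), with a log2 fold change of 2.09 (SE 0.38, edgeR, Benjamini-Hochberg adjusted p = 0.00104). The count given to Gm26894 was thus higher beside Shh, at a low level, and whether it holds reads of Shh cannot be told. The log2 fold change of 9530036O11Rik was 0.55 (SE 0.50) and did not pass (edgeR, adjusted p = 0.441).

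Gli1, a GLI activator whose own transcription is a standard readout of the pathway (ENSMUSG00000025407, chromosome 10, 127329882 to 127341974, minus strand), was higher in all knockouts. Its CPM was 112, 111, 83.6, 88.9 and 87.9 in knockouts 1 to 5, against 67.6, 65.8, 66.9, 72.2 and 62.6 in controls 1 to 5. The pair of litter A knockouts lay well above the other 3, and the controls were tight, with a coefficient of variation of 5.15%. The fold was 1.44 (95% interval 1.27 to 1.64), a log2 fold change of 0.53 (SE 0.08, edgeR, Benjamini-Hochberg adjusted p = 0.000458). On the opposite strand the antisense gene Gm47200 shares 5.3% of the Gli1 exon bases and was not analysed here. Also on that strand, Arhgap9 shares 1.2% of the Gli1 exon bases and rose as well, at 8.97 ± 1.19 CPM in knockouts and 3.97 ± 0.406 CPM in controls (SD, n = 5 each).

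Ptch1, the receptor that holds SMO in check (ENSMUSG00000021466, chromosome 13, 63508328 to 63573598, minus strand), rose by less. It was at 170.3, 156, 164, 122 and 160.3 CPM in knockouts 1 to 5, against 107, 119, 128, 124 and 118 CPM in controls 1 to 5. Knockouts 1, 2, 3 and 5 lay above every control, and knockout 4 lay among the controls. The fold was 1.30 (95% interval 1.15 to 1.47), a log2 fold change of 0.37 (SE 0.08, edgeR, Benjamini-Hochberg adjusted p = 0.00366). Without litter A the log2 fold change was 0.27 and the call was lost (adjusted p = 0.125).

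Hhip, which encodes a membrane protein that binds and sequesters hedgehog ligands (ENSMUSG00000064325, chromosome 8, 79965851 to 80058006, minus strand), was the least abundant member. It was at 3.41, 5.44, 4.40, 3.98 and 3.46 CPM in knockouts 1 to 5, against 2.23, 2.48, 2.61, 2.71 and 2.07 CPM in controls 1 to 5. The groups did not overlap, and knockout 2 was the highest library. The fold was 1.71 (95% interval 1.36 to 2.15), a log2 fold change of 0.77 (SE 0.15, edgeR, Benjamini-Hochberg adjusted p = 0.00193). Counts were 137 to 285 per knockout library and 92 to 130 per control library.

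The co-receptor genes Boc and Cdon, which encode related immunoglobulin and fibronectin repeat proteins, fell to about the same degree. Boc (ENSMUSG00000022687, chromosome 16, 44485049 to 44558897, minus strand) was at 30.6, 34.9, 39.8, 46.3 and 40.5 CPM in knockouts 1 to 5, against 76.9, 84.2, 100.2, 57.5 and 82.3 CPM in controls 1 to 5. Every knockout lay below every control, and control 4 was the control nearest to the knockouts. The fold was 0.479 (95% interval 0.389 to 0.590), a log2 fold change of -1.06 (SE 0.14, edgeR, Benjamini-Hochberg adjusted p = 0.000105). Boc had the smallest p of the 9 members, at place 1097 among all genes tested.

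Cdon (ENSMUSG00000038119, chromosome 9, 35421128 to 35507652, plus strand) was at 48.2, 43.2, 79.1, 65.7 and 106 CPM in knockouts 1 to 5, against 115, 138, 165, 110.5 and 139.5 CPM in controls 1 to 5. The groups did not overlap, but knockout 5 came within a small gap of control 4. The fold was 0.512 (95% interval 0.370 to 0.707), a log2 fold change of -0.97 (SE 0.21, edgeR, Benjamini-Hochberg adjusted p = 0.00398). Cdon varied more among knockouts than any other member, with a coefficient of variation of 37.2%, against 16.4% among controls. The litter A knockouts were the lowest of all 10 libraries.

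Gas1, the third co-receptor gene and a glycolipid-anchored protein (ENSMUSG00000052957, chromosome 13, 60174405 to 60177365, minus strand), changed less. It was at 154, 144, 161, 184 and 190.4 CPM in knockouts 1 to 5, against 180.2, 179.7, 197, 182 and 213 CPM in controls 1 to 5. Knockouts 1, 2 and 3 lay below every control, and knockouts 4 and 5 lay among them. The log2 fold change was -0.19 (95% interval -0.37 to -0.02), which did not pass (adjusted p = 0.0833, edgeR). It passed with a replicate block by number (-0.20, adjusted p = 0.027) and by litter (-0.20, adjusted p = 0.0171), and without knockout 5 (-0.24, adjusted p = 0.0297). A noncoding gene of the opposite strand, Gm48488, shares 19.9% of the Gas1 exon bases in the annotation and was not analysed here.

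Gli2, the main activator among the GLI proteins in the mouse embryo (ENSMUSG00000048402, chromosome 1, 118834132 to 119053619, minus strand), fell. It was at 52.9, 54.4, 65.3, 57.0 and 67.5 CPM in knockouts 1 to 5, against 73.7, 80.1, 96.4, 66.8 and 79.3 CPM in controls 1 to 5. Only knockout 5 reached the level of a control, which was control 4. The fold was 0.749 (95% interval 0.647 to 0.869), a log2 fold change of -0.42 (SE 0.10, edgeR, Benjamini-Hochberg adjusted p = 0.00565). The call was lost without litter A (-0.36, adjusted p = 0.0934).

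Gli3, the main repressor of the pathway in the limb, where it restrains digit number (ENSMUSG00000021318, chromosome 13, 15463235 to 15730026, plus strand), had the smallest change of the members called. It was at 150.0, 137, 146, 148 and 149 CPM in knockouts 1 to 5, against 153, 161, 192, 156 and 167 CPM in controls 1 to 5. All knockouts lay below all controls, but control 1 was only slightly above knockout 1. The fold was 0.880 (95% interval 0.804 to 0.963), a log2 fold change of -0.18 (SE 0.06, edgeR, Benjamini-Hochberg adjusted p = 0.031). The call was lost without knockout 2 (-0.16, adjusted p = 0.0752), knockout 3 (-0.18, adjusted p = 0.0625), knockout 4 (-0.19, adjusted p = 0.052) or control 5 (-0.18, adjusted p = 0.0558). It was also lost without litter A (-0.22, adjusted p = 0.0869), B (-0.12, adjusted p = 0.0838) or D (-0.19, adjusted p = 0.0725), and when libraries were scaled by size only (-0.13, adjusted p = 0.113).

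**Figure D2:**
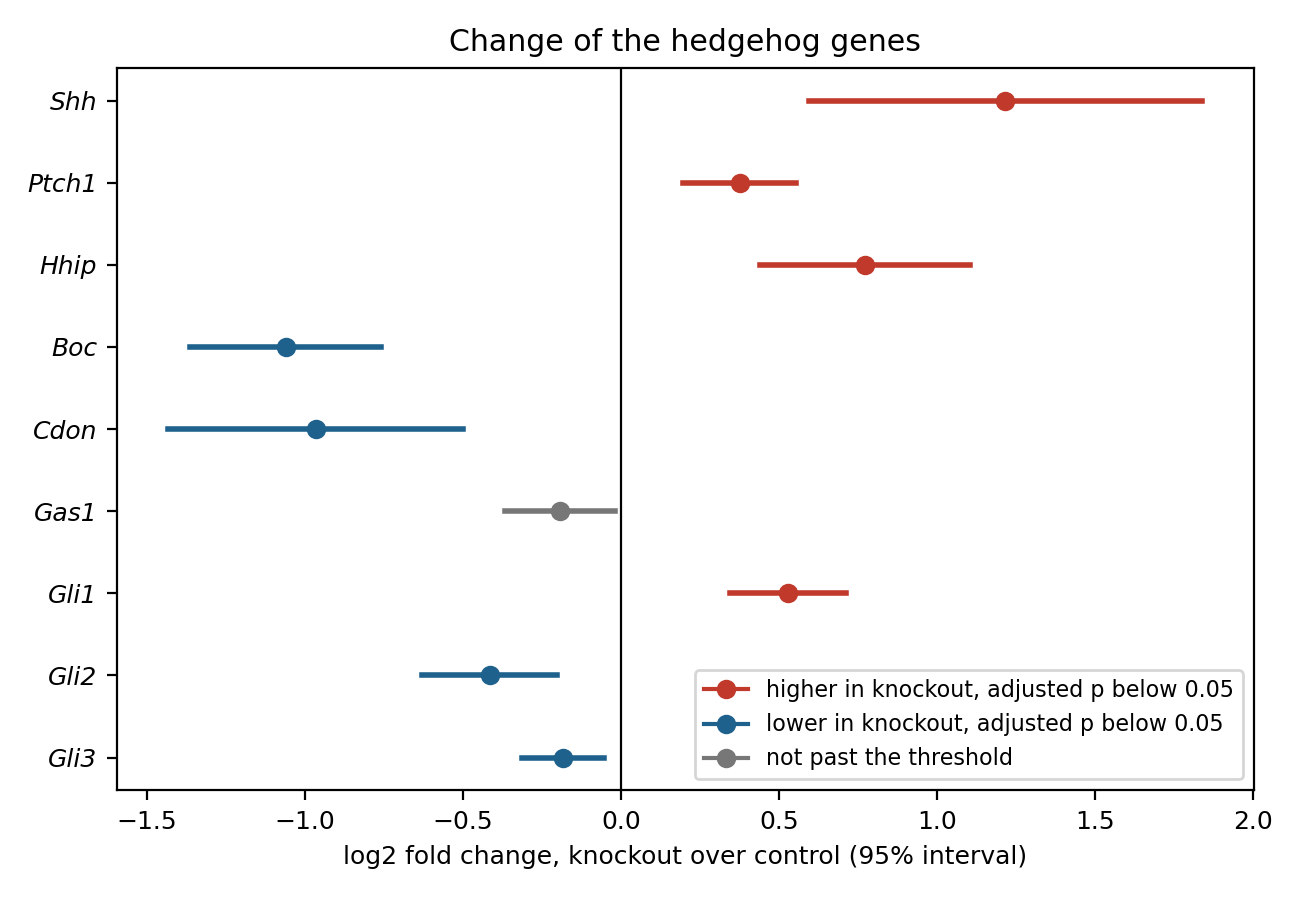
Log2 fold change of each hedgehog gene, knockout over control, with its 95% interval on the horizontal axis and genes down the page in the order ligand, feedback genes, co-receptors and GLI genes. Shh (1.22), Hhip (0.77), Gli1 (0.53) and Ptch1 (0.37) lie right of 0, and Boc (-1.06), Cdon (-0.97), Gli2 (-0.42) and Gli3 (-0.18) lie left of it, with Gas1 (-0.19) not past the threshold.

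Transcript levels within a library were also set against each other, as ratios of CPM given as a description with no test. Gli3 relative to Gli1 had a ratio of 1.24 to 1.75 in knockouts and 2.17 to 2.87 in controls, with no overlap. Boc relative to Ptch1 ranged from 0.179 to 0.379 in knockouts and from 0.465 to 0.780 in controls. Cdon relative to Ptch1 ranged from 0.277 to 0.662 in knockouts and from 0.892 to 1.29 in controls. All 3 of these ratios were lower in every knockout than in every control. Each divides a member called lower by a member called higher, so they largely restate those changes. Gas1 relative to Ptch1 overlapped, at 0.906 to 1.51 in knockouts and 1.47 to 1.81 in controls. Gli2 relative to Gli3 overlapped too, at 0.353 to 0.454 in knockouts and 0.427 to 0.501 in controls. Among the response genes, Ptch1 relative to Gli1 ranged from 1.37 to 1.96 in knockouts and from 1.58 to 1.92 in controls. Hhip relative to Gli1 ranged from 0.0305 to 0.0527 in knockouts and from 0.0330 to 0.0390 in controls. Knockouts 2 to 5 lay above every control, but knockout 5, at 0.0394, was barely above control 3. Relative to Shh, Gli1 had a median ratio of 11.5 (7.90 to 15.04) in knockouts and 18.2 (11.5 to 48.2) in controls. These ranges overlapped, with the highest ratio in control 3, where Shh was lowest. The counts measure transcripts, so they give neither the cleaved repressor form of GLI3 nor the activator forms.

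Levels can be ordered between genes only per length, here as CPM per kilobase of annotated exons. In knockouts Gas1 was highest at 56.3 ± 6.69, followed by Gli1 at 19.4 ± 2.73, Gli3 at 15.2 ± 0.543 and Ptch1 at 10.9 ± 1.33 CPM per kilobase (SD, n = 5). Cdon (8.88 ± 3.30), Gli2 (8.65 ± 0.960) and Boc (8.63 ± 1.34) came next, then Shh (3.07 ± 0.474) and Hhip (0.456 ± 0.0917), on the same scale. The ranges of Ptch1, Cdon, Gli2 and Boc overlapped, and every other pair of neighbours in the order was separate. In controls the order was Gas1 at 64.3 ± 4.99, Boc at 18.0 ± 3.45, Cdon at 17.3 ± 2.85, Gli3 at 17.3 ± 1.63, Gli1 at 13.4 ± 0.691 and Gli2 at 11.5 ± 1.59 CPM per kilobase. Ptch1 (8.40 ± 0.564), Shh (1.32 ± 0.609) and Hhip (0.267 ± 0.0294) were the lowest. Boc, Cdon and Gli3 overlapped in controls, Gli1 overlapped Boc, Cdon and Gli2, and the remaining neighbours were separate. Boc thus stood at place 7 in knockouts and at place 2 in controls, and Gli1 at place 2 in knockouts and place 5 in controls. Per kilobase of the longest transcript the order in knockouts was the same, and in controls Gli3 stood at place 2, Boc at 3 and Cdon at 4.

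**Figure D3:**
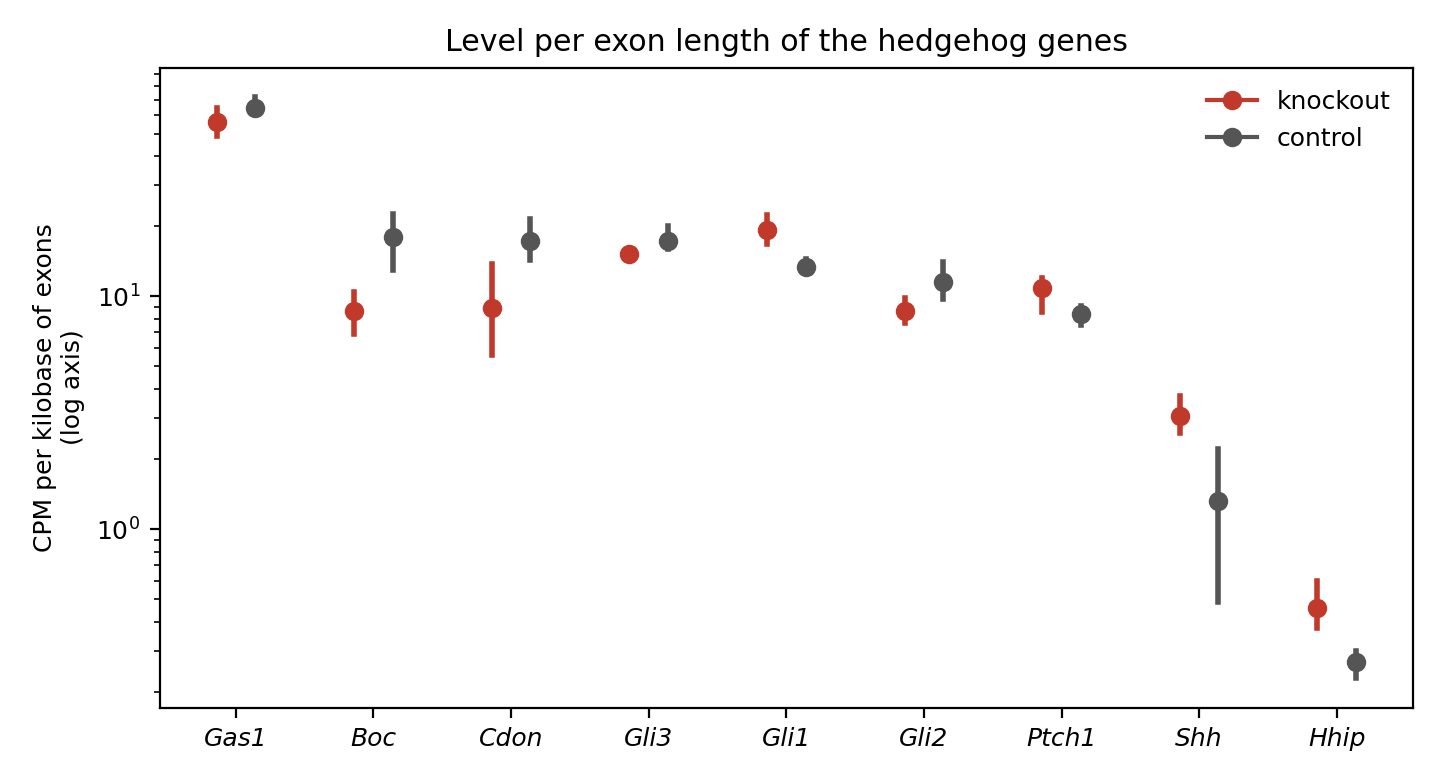
CPM per kilobase of annotated exons, on a log axis, for each hedgehog gene in knockouts and controls, with the mean as a point and the range of 5 libraries as a line. Gas1 is highest in both groups, at 56.3 in knockouts and 64.3 in controls, and Hhip is lowest, at 0.456 in knockouts and 0.267 in controls.

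The litters differed in the size of the changes, and for Ptch1 and Gas1 also in direction. Within litters A, B, C and D the log2 ratio of knockout over control CPM was 1.22, 2.93, 0.30 and 1.14 for Shh, and 0.74, 0.32, 0.30 and 0.49 for Gli1. Boc was at -1.30, -1.33, -0.31 and -1.02 in the same litters, and Cdon at -1.47, -1.06, -0.75 and -0.39. Shh, Gli1, Hhip, Boc, Cdon, Gli2 and Gli3 had 1 direction in all 4 litters, and Ptch1 and Gas1 in 3, with the exception in litter C. Ptch1 was at -0.02 and Gas1 at 0.02 in litter C. Of the 9 members, 8 had their smallest difference in litter C, and Cdon had it in litter D. Litters B, C and D hold 1 embryo of each group, so these values have no replicate within the litter. Xist was at 2290 CPM in knockout 3 and 4114 CPM in control 1, and at most 5.48 CPM in the other libraries. With the high-Xist libraries left out, 4 members were higher and 4 lower in edgeR. Shh then had a log2 fold change of 1.13 (edgeR, adjusted p = 0.0325).

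**Figure D4:**
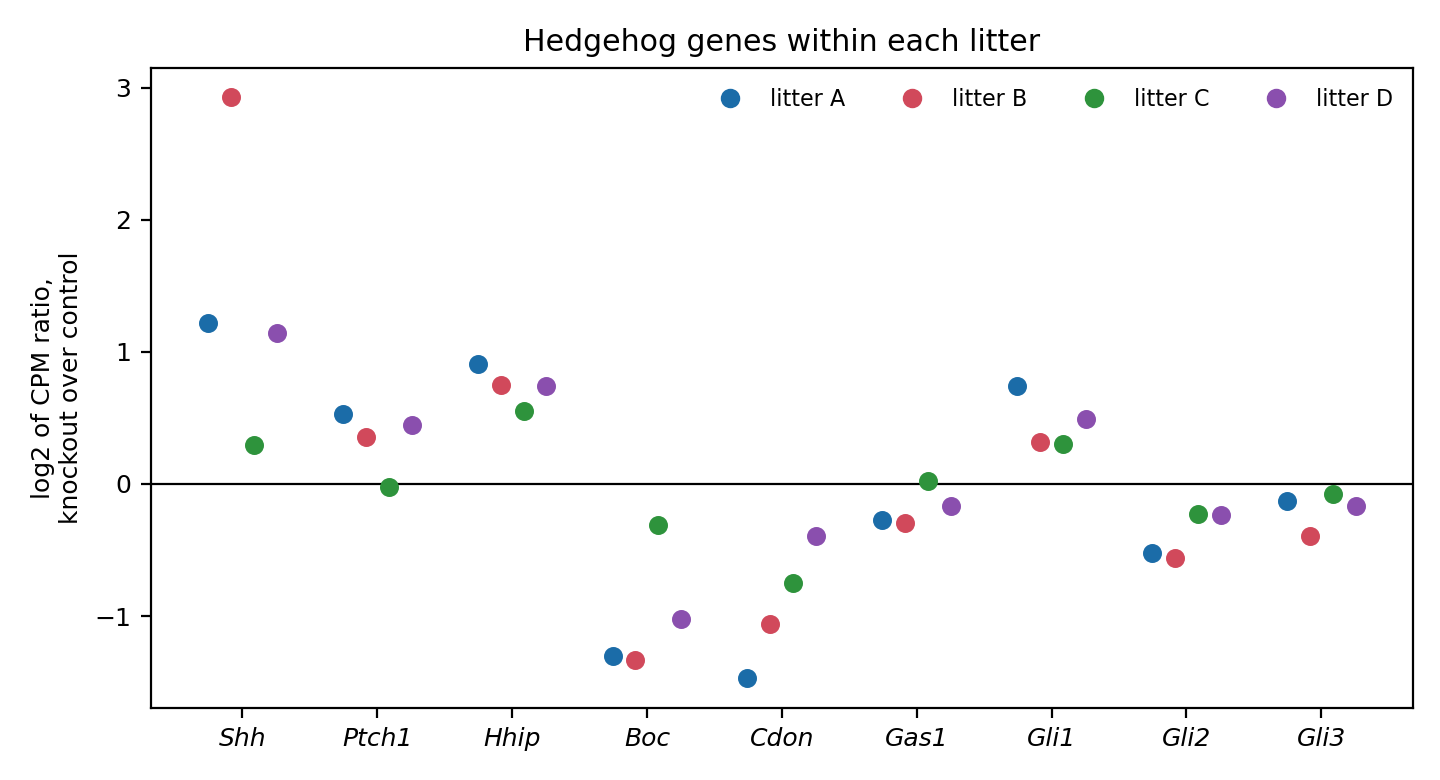
Log2 ratio of CPM, knockout over control, for each hedgehog gene within each of the 4 litters, where litter A is the ratio of means of 2 embryos each and the other litters are single pairs. Shh ranges between 0.30 (litter C) and 2.93 (litter B). Litter C lies nearest to 0 for every gene but Cdon.

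In litter C, control 4 lay towards the knockouts for several genes, and knockout 4 towards the controls for Ptch1 and Boc. Knockout 4 had the lowest Ptch1 (122 CPM) and the highest Boc (46.3 CPM) of the knockouts. For Gli1, Gli2, Gli3, Hhip and Cdon it was the median knockout. Control 4 was the highest control for Shh, Gli1 and Hhip, and the lowest for Boc, Cdon and Gli2. Control 3, from litter B, was the reverse for several genes, with the lowest Shh and the highest Boc, Cdon, Gli2 and Gli3 of the controls. Control 4 had 49 somites, as did knockouts 2 and 5. When the edgeR fit included somite stage, Shh had a log2 fold change of 1.21 (adjusted p = 0.00837), Boc of -1.04 (adjusted p = 0.000245), and the other called members passed too.

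Other genes of reception were divided. Evc2, part of a complex at the base of the cilium that passes on SMO activity, was at 55.4 ± 2.58 CPM in knockouts and 41.8 ± 2.05 CPM in controls (SD, n = 5 each), with a log2 fold change of 0.40 (SE 0.05, edgeR, Benjamini-Hochberg adjusted p = 8.37e-05). Gpc3, a glypican that competes with PTCH1 for the ligand, was lower at 632.5 ± 20.6 CPM in knockouts and 919.6 ± 35.7 CPM in controls (SD, n = 5 each), with a log2 fold change of -0.54 (SE 0.04). Gpr161, a ciliary receptor that restrains the pathway, fell by 0.28 (SE 0.05), and Smo itself fell by 0.23 (SE 0.04). In all, 1 of 6 genes of this list rose, 3 fell and 2 did not pass, where 35.2% of all genes tested were called. The median log2 fold change of the list was -0.14.

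Of 7 genes of ligand supply, 1 rose, 1 fell and 5 did not pass, beside 35.2% of all genes tested that passed. With a replicate block 2 rose, as they did with scaling by library size only and against the controls without Cre only. The number that rose was also 2 without control 5 and without litter D. Dhh, the ligand of Schwann cells and vessels, was at 0.634 ± 0.0406 CPM in knockouts and 0.155 ± 0.0808 CPM in controls (SD, n = 5 each), with a log2 fold change of 2.03 (SE 0.31, edgeR, Benjamini-Hochberg adjusted p = 0.000351), with 137 counts over all knockouts and 35 over all controls. Scube2, which helps release the ligand, was low at 0.240 ± 0.149 CPM in knockouts and 0.556 ± 0.177 CPM in controls, a log2 fold change of -1.23 (SE 0.38, adjusted p = 0.0242). Its call was lost without knockout 1 or 4 (-1.04 and -1.09) and without control 2 or 5 (-1.16 and -1.08). It was also lost without litter A (-1.01, edgeR, adjusted p = 0.19), C (-1.20, adjusted p = 0.0503) or D (-1.10, adjusted p = 0.0862). The same held against the controls without Cre only (-1.17, edgeR, adjusted p = 0.0793). Disp1 and Hhat, needed to export and to modify the ligand, had log2 fold changes of 0.02 (95% interval -0.17 to 0.21) and 0.04 (95% interval -0.22 to 0.29) and did not pass.

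Of 12 genes that control the GLI proteins, 0 rose, 4 fell and 8 did not pass in edgeR, where 35.2% of all genes tested were called. Sufu, which binds GLI proteins and holds them inactive, was at 66.7 ± 7.31 CPM in knockouts and 86.2 ± 8.90 CPM in controls (SD, n = 5 each), with a log2 fold change of -0.37 (SE 0.09, edgeR, Benjamini-Hochberg adjusted p = 0.00586). Prkacb, a catalytic subunit of protein kinase A, which marks GLI proteins for processing into repressors, fell by 0.46 (SE 0.07). Csnk1a1, another kinase of that step, fell by 0.17 (SE 0.04), and Stk36 had a log2 fold change of -0.48 (SE 0.17). The Stk36 call (adjusted p = 0.0415) was lost in 14 of 25 alternatives, among them leaving out knockout 2, 3 or 4 or control 1, 3 or 5 (-0.46 to -0.39). Against the controls without Cre only it was -0.29 (edgeR, adjusted p = 0.268). Without knockout 3 and control 1, the libraries with high Xist, it was -0.32 (edgeR, adjusted p = 0.193). Over the list, at an unadjusted p below 0.05 the counts were 0 higher and 6 lower, DESeq2 gave 0 higher and 4 lower, and limma 0 higher and 3 lower. Without litter A, 2 were lower, and 6 were lower with a replicate block by litter. The median was -0.11.

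Genes of cilium assembly and transport had small changes. Kif3b, a motor subunit, was at 52.8 ± 1.30 CPM in knockouts and 44.8 ± 1.21 CPM in controls (SD, n = 5 each), with a log2 fold change of 0.23 (SE 0.04, edgeR, Benjamini-Hochberg adjusted p = 0.000896), and Cc2d2a, of the cilium's transition zone, rose by 0.24 (SE 0.05). Its partner motor gene Kif3a (-0.30, SE 0.10, adjusted p = 0.0287) and the transport gene Ift172 (-0.20, SE 0.06, adjusted p = 0.022) were lower. The Kif3a call was lost without knockout 2, 3 or 4 or control 1, 2 or 3 (-0.31 to -0.24), and that of Ift172 without knockout 3 or 5 or control 2 (each -0.17). Among the 14 genes of the list 2 rose and 2 fell, and 10 did not pass, beside 35.2% called of all genes tested. The median of the list was -0.01. The 2 lower calls were both lost without knockout 3, without control 2, without both knockout 3 and control 1, without litter A or B, against the controls without Cre only, and with scaling by library size only. Kif3a was at -0.19 without litter A (adjusted p = 0.308).

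Limb genes that respond to SHH or GLI3 did not share a direction. Mycn, a regulator of proliferation, was at 131.3 ± 6.996 CPM in knockouts and 89.1 ± 11.3 CPM in controls (SD, n = 5 each), with a log2 fold change of 0.56 (SE 0.08, edgeR, Benjamini-Hochberg adjusted p = 0.000169), and Cdk6, a cell cycle kinase gene, rose by 0.64 (SE 0.10). Osr1, a transcription factor of connective tissue, was at 10.7 ± 4.61 CPM in knockouts and 50.5 ± 15.4 CPM in controls, a log2 fold change of -2.23 (SE 0.27, adjusted p = 6.05e-05). Hoxd12, a posterior homeobox gene, was at 79.2 ± 12.1 CPM in knockouts and 165.7 ± 30.2 CPM in controls, a log2 fold change of -1.06 (SE 0.13, adjusted p = 7.2e-05). Among the 14 genes of the list 3 rose and 4 fell, and 7 did not pass, beside 35.2% called of all genes tested. The median of the list was -0.15.

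Regulators of Shh in the limb were also divided. Etv4 and Etv5, transcription factors induced by FGF that keep Shh out of the anterior bud, rose by 1.31 (SE 0.10) and 0.51 (SE 0.09) on the log2 scale. Etv4 was at 132.9 ± 8.90 CPM in knockouts and 53.7 ± 8.85 CPM in controls (SD, n = 5 each). Fgf8, the ridge signal that sustains Shh, was at 25.8 ± 2.44 CPM in knockouts and 12.2 ± 4.59 CPM in controls, and Lmx1b, a dorsal mesenchyme factor, fell by 0.51 (SE 0.08). Fgf8 is made by the apical ridge, and ectoderm and ridge markers, Fgf8 among them, were higher in the knockout as given above. The Fgf8 log2 fold change of 1.07 (SE 0.21, edgeR, Benjamini-Hochberg adjusted p = 0.00154) was 0.82 without litter A (adjusted p = 0.0502). Among the 15 genes of the list 3 rose and 3 fell, and 9 did not pass, beside 35.2% called of all genes tested. The median of the list was -0.07.

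The genes around Shh on chromosome 5 were listed as well, since its limb enhancer lies in an intron of Lmbr1, which ends 762.5 kb from Shh in GRCm38. Lmbr1 was at 12.3 ± 1.81 CPM in knockouts and 12.8 ± 1.32 CPM in controls (SD, n = 5 each), with a log2 fold change of -0.06 (95% interval -0.30 to 0.18). Of the 5 neighbours with enough counts, 0 rose and 0 fell in edgeR after adjustment, where 35.2% of all genes tested were called. At an unadjusted p below 0.05, 0 were higher and 1 was lower, namely Rnf32 (-0.61, adjusted p = 0.0814). DESeq2 called 0, and 1 was lower with a replicate block. Leaving out 1 library at a time gave 0 to 1 lower.

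**Figure D5:**
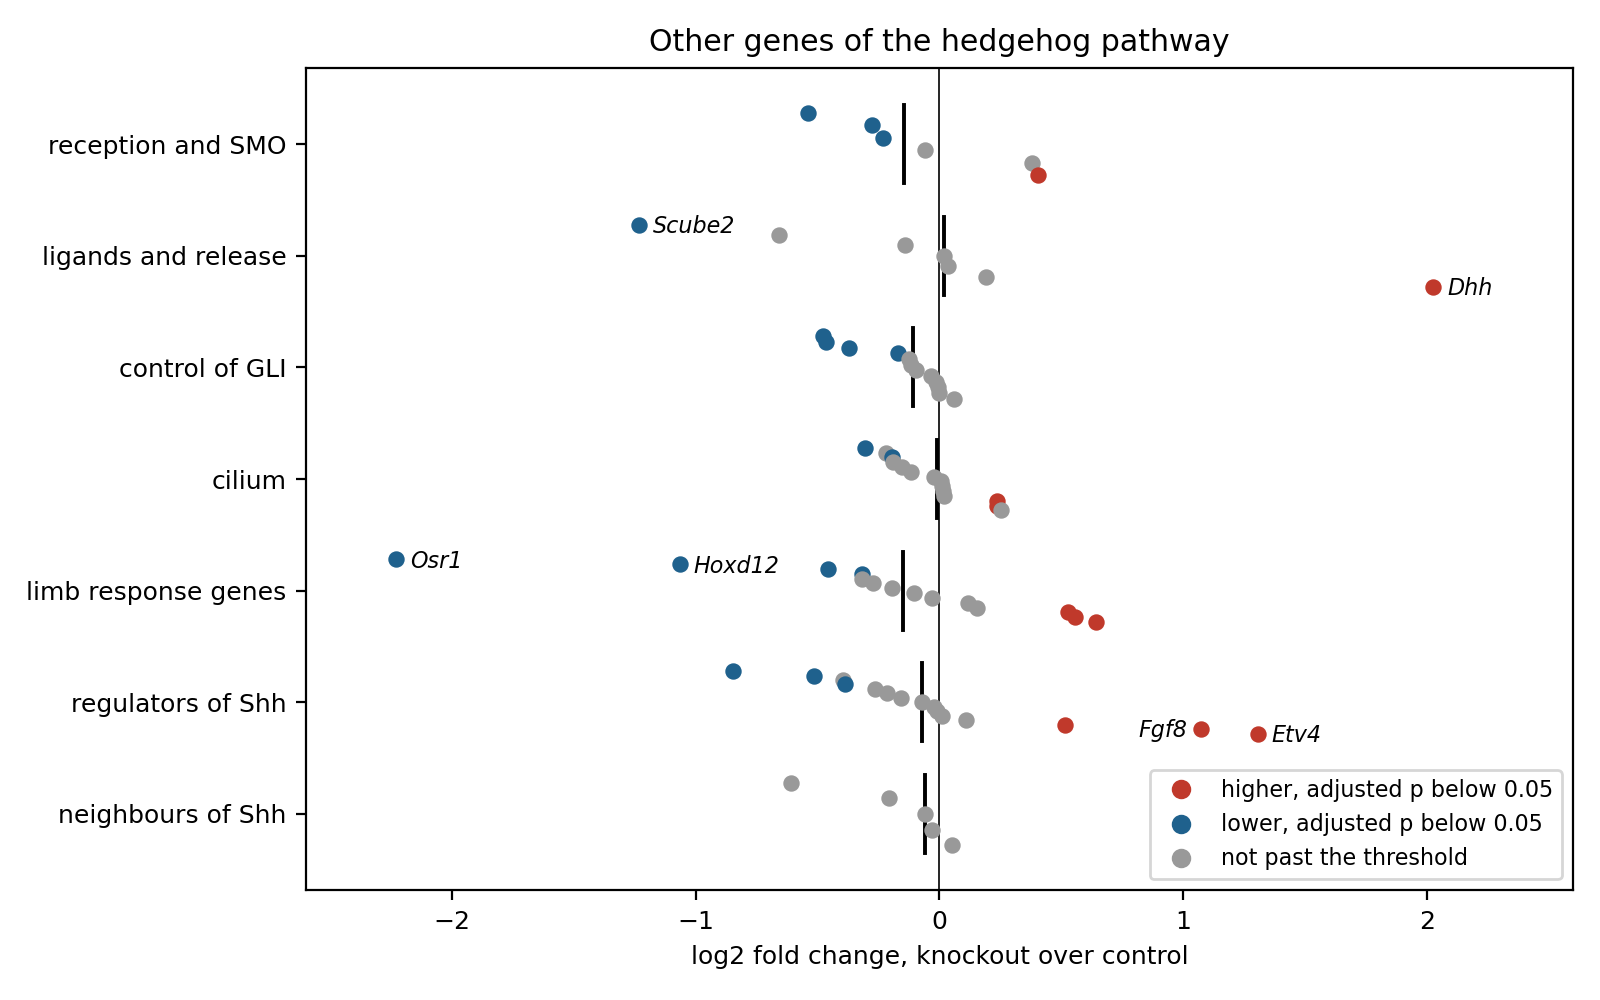
Log2 fold change, knockout over control, on the horizontal axis for the tested genes of 7 lists around the hedgehog members, 1 point per gene, with the median of each list as a bar. Dhh (2.03) and Etv4 (1.31) lie far right, Osr1 (-2.23), Scube2 (-1.23) and Hoxd12 (-1.06) far left, and the list medians lie between -0.15 and 0.02.

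The genes whose log2 CPM profile over the 10 libraries came nearest to that of a member were found among 13486 protein-coding genes with a mean of at least 1 CPM, by the root mean square difference of mean-centred profiles. For Shh they were Apoc1 (0.30), Iqcg (0.34) and Rgs6 (0.35). For Gli1 they were Itm2b (0.07), Zic2 (0.08) and Kifc5b (0.10), and for Boc they were Tle2 (0.09), Bmf (0.13) and Plce1 (0.13). Zic2 was at 68.5 ± 10.3 CPM in knockouts and 45.5 ± 2.87 CPM in controls, and Tle2 at 7.63 ± 0.745 CPM in knockouts and 16.6 ± 2.99 CPM in controls (SD, n = 5 each).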

How the data were processed

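RNA of 10 mouse forelimb bud libraries was compared, 5 knockout and 5 control, grouped by sample title. The deposited table held estimated counts per Ensembl gene. The authors worked with DESeq2 1.16.1, Salmon 0.8.2 and R 3.4.1 on mm10, per the submitters' processing notes, which assign no roles. How transcripts were combined per gene, or strand was handled, was not given in the sources used here. The other deposited table calls itself FPKM but is a signal: multiplied by a factor of its library, 100.00% of the values above 0 came within 0.01 of rounded counts. It entered 1 alternative, as log2 with a pseudocount of 1.

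Estimated counts were rounded to whole numbers, kept where filterByExpr passed them (at least 10 counts, 15 in total), TMM-scaled, and compared by quasi-likelihood in edgeR 4.0.16 (R 4.3.3, no covariate), with Benjamini-Hochberg adjustment over all 20562 genes tested. The SE of a log2 fold change is its size over the root of F, and intervals are at 95%. The test was checked on simulated counts with the same dispersion for all genes and no litter effect, which does not test the calls made here. Alternatives used DESeq2 1.42.0, limma 3.58.1, other scalings and filters, blocks, and fewer libraries. Symbols, positions and exon lengths came from GENCODE M21 (GRCm38, the assembly of mm10), in which 47224 IDs had a symbol, and promoters from RefSeq.

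Totals were 33274855 to 49881126 counts, and floors of 3 counts cover counting error only. Within groups, chi-square over its degrees of freedom was 17.52 to 49.61 for every pair of libraries, far above sampling noise. Replicates are separate embryos. Same-numbered libraries share a litter per the labels, and the correlation of their deviations from the group means was -0.0245 to 0.200. Genes named are Cxxc1, the 9 members, in each list at most 4 called genes, those of lowest adjusted p, and the 3 nearest profiles of Shh, Gli1 and Boc. Prrx1, Tbx5, Tbx4, Pitx1, Xist, Disp1, Hhat, Lmbr1, Rnf32 and the opposite-strand genes were added after their values were seen. A gene of the reception list is not reported here. The members and lists were chosen with earlier results of these data known.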

Additional observations from a re-analysis of the deposited data

How the results depend on the processing

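Over 25 alternatives the direction of all 9 members held. Gli1, Hhip, Boc and Cdon passed in all 25, Shh, Ptch1 and Gli2 in 24, Gli3 in 17 and Gas1 in 3. Without litter A, 3 against 3, 2 members rose and 2 fell, and over all genes 2002 rose and 2021 fell, against 3719 and 3526 with all libraries; fewer samples were tested there. Leaving out 1 library at a time gave 4 members higher and 3 to 5 lower, and 3183 to 3600 genes higher and 3096 to 3428 lower, with Cxxc1 between -0.39 and -0.33. The share of called genes that were higher was 51.3% with TMM and 62.2% with library size only, where the median log2 fold change of all genes was 0.05. Among the members and the genes named by the rule, a replicate block by number or litter changed the call of Gas1 alone. In the lists, 1 neighbour of Shh and 1 gene of ligand supply were called besides. Of the genes that control GLI proteins, 6 were lower with the block by litter, against 4 without a block. The block by number or litter gave 3491 and 3723 genes higher and 3359 and 3591 lower. Per kilobase of the longest transcript in place of the exon union, which is shorter by construction, levels were 14.9 for Ptch1, 23.8 for Gli1 and 17.9 for Gli3 in knockouts, and 11.5, 16.5 and 20.3 in controls. Of the other named genes, Stk36 passed in 11, Kif3a in 14, Ift172 in 16 and Scube2 in 17 of 25 alternatives, and the cause was not tested. Low counts of Hhip, Dhh and Scube2 limit their precision. That of Shh is limited by the spread among controls, with a coefficient of variation of 46.2%.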
